A study of Mus musculus with 12 samples.

Results

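Msn, Tmsb4x, Flna and Sept6 are X-linked mouse genes whose products build or bind the cytoskeleton. They were taken from tables of X-chromosome variants in RNA of fibroblasts and of cells under reprogramming, as the single-base variants with at least 20 covering reads that the tables assign to one of these genes. This gave 152 positions of 6478, and 4 genes of 398 with such a position. The RNA came from MidK2 cells at days 18, 22, 29 and 36, from MidK1 cells at days 35, 52 and 56, from LowK cells at days 35, 52 and 56, and from mouse embryonic fibroblasts (MEF1 and MEF2, day 0). The MidK2, MidK1 and LowK cells were derived from fibroblasts with SeVdp(fKOSMaB), a Sendai virus vector that carries reprogramming factors. MidK1 and MidK2 cells were cultured with 30 nM Shield1, a compound that protects proteins carrying a destabilising domain from degradation, whereas LowK cells and fibroblasts had no agent. Each course had 1 library per day, with no replicate of any reprogrammed time point, and the sources used here do not say whether the MEF1 and MEF2 libraries come from separate cultures. Mouse strains, the parent of origin of each X chromosome and the sorting of cells before RNA extraction are likewise not given.

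Female cells silence 1 of their X chromosomes, and reprogramming to pluripotency can reopen it, so that RNA of the silent copy is read again. Where the X chromosomes differ in sequence, the share of reads with each base at a variant position shows which copy is transcribed. Moesin (Msn) is a member of the ezrin-radixin-moesin family and ties actin filaments to the plasma membrane. Filamin A (Flna) crosslinks actin filaments and anchors them to membrane receptors. Thymosin beta 4 (Tmsb4x) binds actin monomers and keeps them from polymerising, and septin 6 (Sept6) is a GTP-binding protein that assembles with other septins into filaments. Moesin, filamin A and thymosin beta 4 are abundant in fibroblasts.

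The allele readings rest on positions such as the following, shown because each is the most deeply read position of its gene at which fibroblasts (for Sept6, LowK cells at day 35) carried the variant. Each line gives 29 bases of the transcript in the GENCODE M21 annotation of build mm10, 5′ to 3′, with the variant position in a capital and the reference base shown.
Msn, coding exon 10 of 13, plus strand, position chrX:96163751, change G15A: aaggctcagcaagaGctggaagagcagac
Flna, coding part of exon 47 of 47, minus strand, chrX:74223782-74223810, change A15G: taccgcattatggtAccctgagcctgcca
Tmsb4x, 5′ UTR in exon 1 of 3, minus strand, chrX:167209111-167209139, change C15T: gatcagactctcctCgttcgcgcagctcg
Sept6, coding exon 9 of 11, minus strand, chrX:36922957-36922985, change G15A: aagaagaagctggaGgataagaagaaatg
Positions in each change are counted from 1 at the 5′ end of the window, with the reference base first and the variant base last. The Msn window runs across an exon junction, so only its variant position is located on the chromosome. The Tmsb4x position held 24160 reads over the 12 libraries and nearly all reads of its gene, against 5818 at the Flna position, 2953 at the Msn position and 1636 at the Sept6 position.

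The reference share is the percentage of covering reads that do not carry the variant base, summed over the positions of a gene. Positions at which every read has the reference base are not listed in the tables, and in MEF2 and MidK2 a position could be listed with as few as 2 variant reads. Of the 152 positions, 41 were over 50% reference, and 27 of those were listed in a single library, 26 of them in a MEF2 or MidK2 library, with 2 to 8 variant reads each. Such positions raise a gene's reference share without any change at the others. Shares are therefore given first for the 95 fibroblast-variant sites, which had at least 20 reads and at least 80% variant reads in both MEF1 and MEF2, and the share over all listed positions is given beside them. Reference shares of MEF1 and MEF2 at these sites are thus held low by the choice. Sept6 had no position with 20 reads in either fibroblast library, and its 30 sites were instead required to be at least 80% variant in LowK day 35, so its value in that library is fixed low by the choice. There were 26 fibroblast-variant sites in Msn (chrX:96096042-96168552), of which 9 were coding and 16 in the 3′ UTR. Flna (chrX:74223461-74249820) had 34, of which 30 were coding, Tmsb4x (chrX:167207093-167209315) had 5, all in the 5′ UTR, and Sept6 (chrX:36911326-36991794) had 30, of which 24 were in the 3′ UTR. In all 95 windows the transcript base matched the reference base, and none of the 95 windows was found in an annotated transcript of another gene.

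Libraries held 138579 to 279031 reads over 1507 to 3871 positions of at least 20 reads. Intervals are 95% Wilson intervals and, like the tests between 2 libraries, cover counting error only, since reads carry no molecular identifiers and neighbouring positions can lie on 1 read. The cell labels were set beside X-linked marker genes. Of 11 X-linked fibroblast genes, 6 to 8 were measured in reprogrammed libraries with 1.70 to 4.17% of reads at positions, against 8 in MEF2 with 26.5% and 10 in MEF1 with 29.2%. Of 2 X-linked trophoblast genes, Esx1 had 0.647 to 1.68% in reprogrammed libraries and was at 0 in fibroblasts. The other, Plac1, was at 0 throughout, as were all 6 blood-cell genes. The libraries are of bulk RNA, so more cells that use both alleles and more RNA of the reference allele per cell cannot be told apart.

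**Figure D1:**
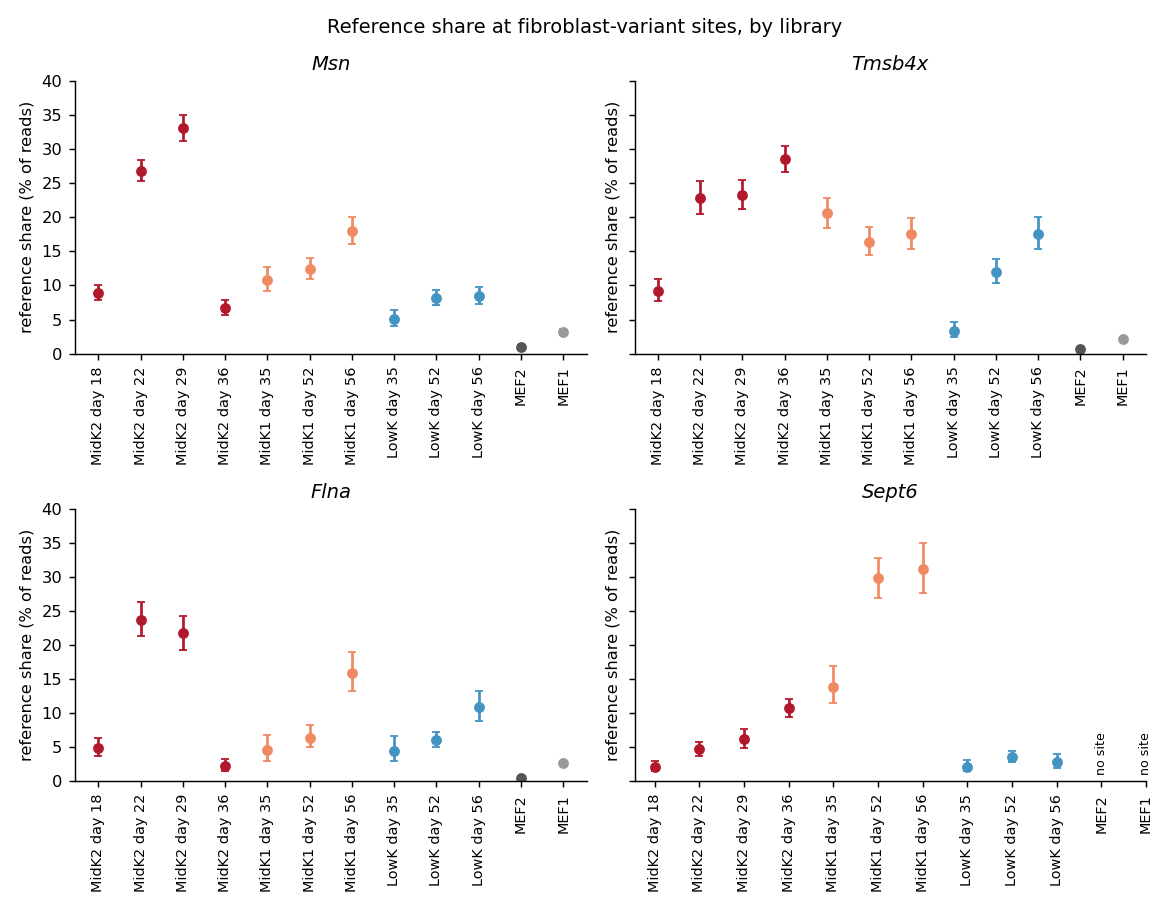
Reference share (percent of reads) at fibroblast-variant sites of each gene in each library, with 95% Wilson intervals. Msn and Flna stood highest in MidK2 days 22 and 29 and low again at day 36, Tmsb4x was highest at MidK2 day 36, and Sept6 was highest in MidK1 days 52 and 56.

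In the MidK2 course Msn had its highest reference shares at days 22 and 29 and lower ones before and after. Most of its reads carried the variant base on every day. At its fibroblast-variant sites the reference share was 1.01% (0.819 to 1.24) of 8615 reads in MEF2, 8.87% (7.86 to 10) of 2682 reads at day 18, 26.8% (25.3 to 28.4) of 3037 reads at day 22, 33.1% (31.2 to 35.0) of 2344 reads at day 29 and 6.67% (5.68 to 7.83) of 2083 reads at day 36. No interval of one library overlapped that of the next. Of 25 sites read on both days, 24 were higher at day 22 than at day 18, and all 26 were lower at day 36 than at day 29. The sites ranged from 15.0 to 55.6% at day 29, and from 0 to 12.6% at day 36. The coding position printed above had 28.1% reference reads (48 of 171) at day 29 and 4.72% (6 of 127) at day 36.

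The coding part and the 3′ UTR of Msn had overlapping intervals on days 22, 29 and 36. On these days the 9 coding sites had 25.0% (22.2 to 28.0), 34.5% (31.0 to 38.1) and 7.40% (5.58 to 9.76), and the 16 sites of the 3′ UTR had 27.9% (26.0 to 29.8), 32.6% (30.4 to 35.0) and 6.46% (5.31 to 7.85). In MidK1 they did not overlap at day 35, at 6.32% (4.43 to 8.93) over coding sites and 13.7% (11.3 to 16.4) over the 3′ UTR, nor at day 56, at 14.5% (11.9 to 17.5) and 20.9% (18.3 to 23.7). The 5 sites nearest the start of the gene, chrX:96096170 in the 5′ UTR and 4 coding sites up to chrX:96152790, stood apart at day 22. They were set apart after their values were seen. There they had 7.02% (4.06 to 11.9) of 171 reads, and the other 21 sites 28.0% (26.4 to 29.7) of 2866 reads. At day 29 the same 5 sites had 38.9% (31.0 to 47.5) of 131 reads and the others 32.8% (30.8 to 34.7), with overlapping intervals. They were also lower in MidK1 day 52, at 5.88% (3.23 to 10.5) against 13% (11.5 to 14.7). In MidK1 day 56, with 3 of them read, the values were 2.94% (0.81 to 10.1) against 18.7% (16.7 to 20.8). In LowK day 56 they were 3.14% (1.35 to 7.15) against 8.96% (7.74 to 10.4). The intervals overlapped in the other libraries that read these sites. Over all listed positions the share was 9.97% at day 18, 26.8% at day 22, 36.1% at day 29 and 18.5% at day 36. The value at day 36 over all positions includes 4 mostly reference positions besides the 26 fibroblast-variant sites.

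Pairs of libraries were tested at the positions listed in both, by Fisher's exact test per gene (two-sided), Benjamini-Hochberg adjustment over all genes of the pair, and a call where the adjusted p was under 0.05 and the shares lay 20 percentage points or more apart. Msn was called higher at day 22 than in MEF2, at 26.8% against 1.01%, and at day 29, at 33.1% against 1.01%, with adjusted p at or under 1e-300, the smallest value written. Among all genes of these pairs, 9.63% of 187 were called at day 22 and 9.94% of 181 at day 29. Msn was also called lower at day 36 than at day 29, at 11.1% against 36.1% over 27 shared positions (a difference of -24.9 points, Fisher's exact test, adjusted p = 2.16e-89), where 1.38% of 290 genes were called. Against day 22 its share at day 36 was lower by 20.1 points, at 6.67% against 26.8% (Fisher's exact test, adjusted p = 1.82e-79), where 4.41% of 295 genes were called. Between days 29 and 22 it differed by 6.30 points (33.1% against 26.8%, Fisher's exact test, adjusted p = 1.57e-05), where 0.714% of 280 genes were called. Between days 22 and 18 it differed by 18.1 points (26.9% against 8.87%, Fisher's exact test, adjusted p = 4.25e-70), where 2.45% of 286 genes were called. Both differences were under the limit of 20 points.

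The reads of each allele of Msn were also set against all reads of the library. Per 10000 reads at all positions of the library, its fibroblast-variant sites held 4.13 reference reads in MEF2, 11.2 at day 18, 35.0 at day 22, 37.7 at day 29 and 4.98 at day 36. Variant reads were 404 in MEF2 and 115, 95.6, 76.3 and 69.7 per 10000 at days 18, 22, 29 and 36. The day 36 library thus had 4.98 reference and 69.7 variant reads, against 37.7 and 76.3 at day 29. These are shares of reads over listed X-chromosome positions, not expression levels, and no test was made on them.

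**Figure D2:**
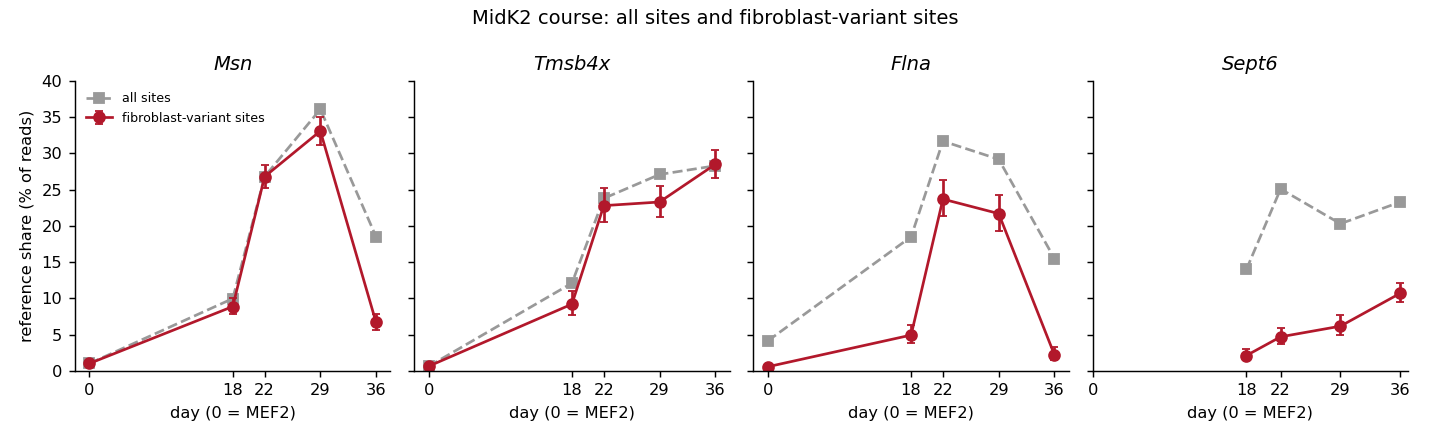
Reference share (percent of reads) in MEF2, plotted at day 0, and at MidK2 days 18, 22, 29 and 36, at fibroblast-variant sites with 95% Wilson intervals (circles) and over all listed positions (squares). The squares lie far above the circles for Flna and Sept6, and for Msn at day 36, where all positions gave 18.5% and the fibroblast-variant sites 6.67%.

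Flna was also highest at days 22 and 29 and low at day 36. At fibroblast-variant sites its reference share was 0.557% (0.472 to 0.658) of 24580 reads in MEF2, 4.93% (3.79 to 6.39) of 1075 reads at day 18, 23.7% (21.3 to 26.3) of 1125 reads at day 22, 21.7% (19.3 to 24.2) of 1071 reads at day 29 and 2.21% (1.45 to 3.35) of 951 reads at day 36. Days 22 and 29 overlapped in their intervals, and days 18 and 36 lay below both. All 7 sites read on days 18 and 22 were higher at day 22, and of 11 sites read on days 29 and 36, 10 were lower at day 36 and 1 was equal. The coding sites gave 24.4% (21.4 to 27.6) at day 22 and 2.15% (1.29 to 3.58) at day 36, and the 2 sites of the 3′ UTR gave 22.6% (18.8 to 26.9) and 2.33% (1.13 to 4.72). At the exon 47 position printed above, 48 of 251 reads were reference at day 22 and 4 of 175 at day 36.

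Over all listed positions the Flna shares were higher, at 4.13% in MEF2, 18.5% at day 18, 31.7% at day 22, 29.2% at day 29 and 15.5% at day 36. The pair tests use all shared positions, and none called Flna. Its share was 24.8% at day 22 against 5.57% in MEF2 (19.3 points, Fisher's exact test, adjusted p = 1.06e-89), 22.6% at day 29 against 5.16% in MEF2 (17.5 points, adjusted p = 2.78e-76), and 7.81% at day 36 against 25.0% at day 22 (-17.2 points, adjusted p = 5.30e-24). All 3 became calls when only positions with at least 50 reads were used, at 23.3, 20.9 and -21.6 points (Fisher's exact test, adjusted p = 1.25e-221, 1.35e-178 and 1.31e-43). They were also calls at positions at least 80% variant in MEF2, at 23.1, 21.1 and -21.6 points (Fisher's exact test, adjusted p = 1.94e-237, 1.07e-211 and 3.27e-46). That choice of positions holds the MEF2 share low, so the calls against MEF2 draw on it.

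Other X-linked measures also differed along the MidK2 course beside Msn and Flna, and their part in these results was not tested. The pooled reads of the 8 measured fibroblast genes had a reference share of 1.94% in MEF2, 23.1% at day 18, 38.7% at day 22, 42.4% at day 29 and 11.7% at day 36. Their share of all reads stayed at 3.46 to 4.17% in the 4 MidK2 libraries. A pooled share does not describe each gene. Pls3, for example, had 9.26% and Fhl1 2.11% at day 22, at positions shared with MEF2. Xist, the long RNA that initiates silencing of an X chromosome, had 0.120% of reads in MEF2 (254 reads), 0.164% at day 18 (348 reads), 0.0280% at day 22 (65 reads), 0.0477% at day 29 (98 reads) and 0.149% at day 36 (416 reads). Within the MidK2 course the Xist share of reads was lowest on the 2 days on which Msn and Flna had their highest reference shares. In MEF1 Xist had 0.0153% of reads (23 reads), where Msn had 3.13% and Flna 2.76% at fibroblast-variant sites. Xist had 0 reads at kept positions in LowK day 35, MidK1 day 35 and MidK1 day 52, where Flna had 4.42, 4.59 and 6.43%. It had 0.0432, 0.0272 and 0.0391% in LowK day 52, LowK day 56 and MidK1 day 56, where Flna had 6.07, 10.9 and 15.9%. The Xist reads were 93 to 93.9% reference in MidK2 libraries and 80.7% in MEF2. They were 65.3, 88.6 and 89.5% reference in LowK day 52, LowK day 56 and MidK1 day 56, and 0% in MEF1. A position is listed only from about 10% variant reads in MEF1, LowK and MidK1, and from 5% in MEF2 and MidK2. Xist reads at positions below these limits are not counted, so a low or 0 value need not mean little Xist RNA. Whether Xist goes with these shares was not tested.

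**Figure D3:**
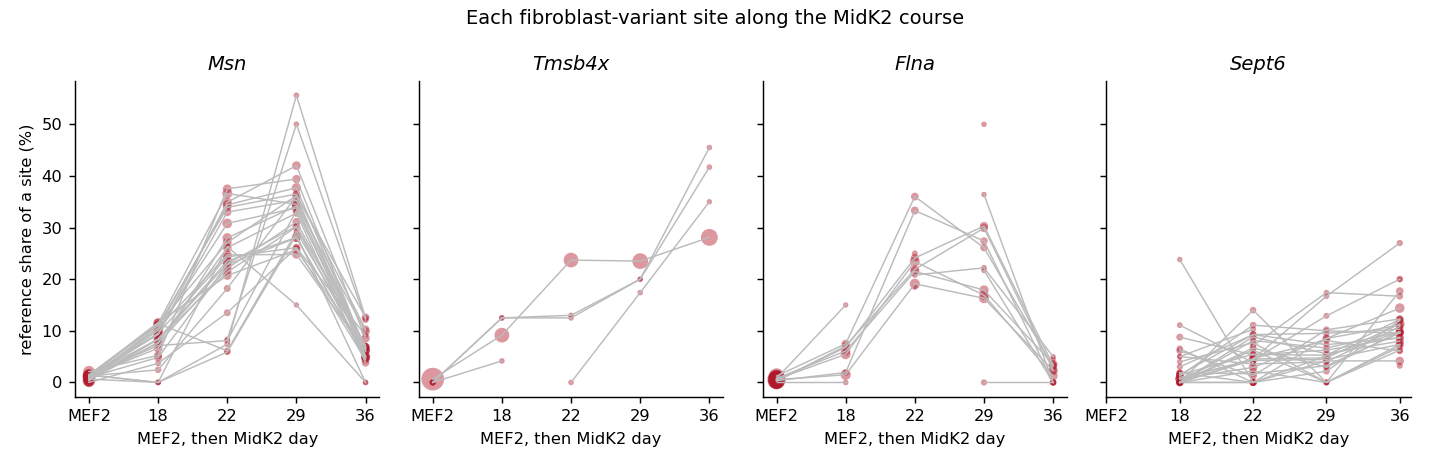
Reference share of each fibroblast-variant site with at least 20 reads (percent) in MEF2 and at MidK2 days 18, 22, 29 and 36, with grey lines joining a site over libraries and point area growing with its reads. The Msn sites lie between 15.0 and 55.6% at day 29 and at or below 12.6% at day 36, whereas the Sept6 sites are spread from 3.23 to 27.0% at day 36.

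Tmsb4x kept its reference reads to the end of the MidK2 course. At fibroblast-variant sites the share was 0.626% (0.460 to 0.852) of 6385 reads in MEF2, 9.20% (7.68 to 11) of 1185 reads at day 18, 22.8% (20.5 to 25.3) of 1181 reads at day 22, 23.3% (21.2 to 25.5) of 1504 reads at day 29 and 28.5% (26.6 to 30.5) of 1981 reads at day 36. Days 22 and 29 overlapped in their intervals and day 36 lay above both. The values rest almost entirely on 1 position, the 5′ UTR site printed above, where reference reads were 263 of 1111 (day 22), 338 of 1441 (day 29) and 538 of 1915 (day 36). Over all listed positions the share was 12.1, 23.8, 27.1 and 28.3% at days 18, 22, 29 and 36.

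Tmsb4x was called higher than MEF2 on 3 days. Its shares at shared positions were 22.8% at day 22 against 0.629% in MEF2 (Fisher's exact test, adjusted p = 1.54e-179), 23.4% at day 29 against 0.627% (adjusted p = 3.26e-219) and 28.5% at day 36 against 0.623% (adjusted p at or under 1e-300). Of all genes, 10.4% of 192 were called at day 36. Between days 36 and 22 it differed by 5.74 points, at 28.5% against 22.8% (Fisher's exact test, adjusted p = 0.00112), which is under the limit for a call. Whether its course differs from that of Msn was not tested, since each day is 1 library. Its reference reads per 10000 numbered 1.90 in MEF2 and 5.14, 11.6, 17.0 and 20.2 at days 18, 22, 29 and 36, and its variant reads 301 in MEF2 and 50.8, 39.2, 56.1 and 50.7 on those days.

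At fibroblast-variant sites Sept6 was low early in MidK2 and highest at day 36, when it lay above Msn (6.67%) and Flna (2.21%). At its fibroblast-variant sites the reference share was 2.11% (1.49 to 2.98) of 1468 reads at day 18, 4.69% (3.76 to 5.84) of 1598 reads at day 22, 6.16% (4.88 to 7.75) of 1087 reads at day 29 and 10.7% (9.50 to 12.1) of 2201 reads at day 36. The intervals of days 22 and 29 overlapped, day 18 lay below both and day 36 above both. Of 28 sites read on days 36 and 22, 23 were higher at day 36 and 5 lower, and all 29 sites read at day 36 carried some reference reads. The coding position printed above had 1 reference read of 150 at day 18 and 24 of 213 at day 36.

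The order of the Sept6 values depends on the positions counted. Over all listed positions the share was 14, 25.1, 20.3 and 23.3% at days 18, 22, 29 and 36, so that day 36 was 1.90 points below day 22, whereas at fibroblast-variant sites it was 6.03 points above. At the 32 positions shared by days 36 and 22 it was 15.9% against 10.2% (5.66 points, Fisher's exact test, adjusted p = 5.17e-07), under the limit for a call. In the table of day 18 the gene name stands as a calendar date, 6-Sep, at 49 single-base positions, all of them inside the Sept6 annotation and 46 of them named Sept6 in another table. These positions were read as Sept6. No fibroblast value can be set beside Sept6, which had no position with 20 reads in MEF1 or MEF2.

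At day 18 none of the 3 genes measured in MEF2 was called, where 2.12% of 189 genes were. Their differences from MEF2 at shared positions were 7.86 points for Msn (8.87% against 1.01%, Fisher's exact test, adjusted p = 3.26e-79), 9.18 points for Tmsb4x (9.81% against 0.623%, adjusted p = 9.92e-62) and 1.01 points for Flna (6.80% against 5.79%, adjusted p = 0.351). The shared positions of Flna include the mostly reference exon 42 site described further on, and at fibroblast-variant sites Flna had 4.93% (3.79 to 6.39) at day 18 against 0.557% (0.472 to 0.658) in MEF2. At day 36 neither Msn nor Flna was called. Msn stood at 6.67% against 1.01% in MEF2 (Fisher's exact test, adjusted p = 2.76e-43) and Flna at 7.07% against 4.79% (adjusted p = 0.00968).

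Without Shield1, in LowK, the shares stayed below those of MidK2 days 22 and 29. At days 35, 52 and 56, the fibroblast-variant sites of Msn had 5.09% (4.09 to 6.33), 8.16% (7.08 to 9.39) and 8.50% (7.35 to 9.80), against 3.13% (2.69 to 3.65) in MEF1. Flna had 4.42% (2.94 to 6.60), 6.07% (5.10 to 7.21) and 10.9% (8.86 to 13.3) on those days, against 2.76% (2.55 to 3) in MEF1. Tmsb4x had 3.35% (2.43 to 4.60), 12% (10.3 to 13.9) and 17.6% (15.4 to 20.1), against 2.08% (1.74 to 2.48) in MEF1. Tmsb4x thus had the highest of the 3 shares at days 52 and 56. None was called against MEF1, where 1.23, 1.76 and 4.91% of genes were called at the 3 days. The difference nearest to the limit was that of Tmsb4x at day 56, 17.6% against 2.08% (15.6 points, Fisher's exact test, adjusted p = 1.30e-74). Sept6, for which MEF1 gives no value, had 2.17% (1.5 to 3.14), 3.53% (2.78 to 4.48) and 2.77% (1.92 to 3.97).

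With Shield1, in MidK1, Tmsb4x was above 15% on each day, and Msn and Flna were highest at day 56. At days 35, 52 and 56 Msn had 10.8% (9.13 to 12.7), 12.4% (11 to 14) and 18.0% (16.1 to 20). Flna had 4.59% (3.05 to 6.86), 6.43% (5 to 8.24) and 15.9% (13.2 to 19.0). Tmsb4x had 20.6% (18.5 to 22.8), 16.4% (14.5 to 18.6) and 17.5% (15.3 to 19.9), with overlapping intervals at days 52 and 56. None of the 3 was called against MEF1, where 8.50, 12.9 and 14.1% of genes were called. The largest differences were 18.5 points for Tmsb4x at day 35 (20.6% against 2.09%), 14.9 points for Msn at day 56 (18.0% against 3.11%) and 13.1 points for Flna at day 56 (15.9% against 2.79%), with adjusted p of 7.19e-115, 6.68e-72 and 1.76e-36 by Fisher's exact test. Over all listed positions the LowK and MidK1 shares of Tmsb4x were the same as at fibroblast-variant sites. They were higher for Flna at day 56, at 24.6% in MidK1 and 23.2% in LowK, for Msn in MidK1 day 35, at 14.6%, and for Sept6 on most days, at 19.7, 32.5 and 31.2% in MidK1 and 3.55, 8.92 and 9.47% in LowK at days 35, 52 and 56.

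The matched days of MidK1 and LowK ask whether Shield1 goes with a difference in these genes, and Sept6 was the member with calls. At fibroblast-variant sites Sept6 had 13.9% (11.5 to 16.9) of 631 reads in MidK1 day 35, 29.8% (26.9 to 32.8) of 913 reads at day 52 and 31.2% (27.6 to 34.9) of 613 reads at day 56, and the LowK values above lay at 2.17 to 3.53%. Every MidK1 value was above every LowK value, here and over all listed positions, where LowK day 35 did not choose the sites. At shared positions the share was 32.5% in MidK1 against 5.20% in LowK at day 52 (27.3 points, Fisher's exact test, adjusted p = 4.76e-75) and 31.2% against 2.49% at day 56 (28.7 points, adjusted p = 3.74e-56). Both were calls, where 8.61% of 244 and 8.64% of 243 genes were called. At day 35 it was 17.0% against 3.79% (13.3 points, Fisher's exact test, adjusted p = 3.44e-17), under the limit, where 7.66% of 235 genes were called.

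The Sept6 difference was present at each site. At days 35, 52 and 56, the MidK1 library had the higher reference share at 17 of 17, 20 of 20 and 18 of 18 fibroblast-variant sites, where the choice of sites by LowK day 35 bears on the first count. At day 56 the share over coding sites was 30.8% (25.5 to 36.6) in MidK1 cells and 3.28% (1.99 to 5.33) in LowK cells, and over those of the 3′ UTR 31.4% (26.8 to 36.5) against 2.35% (1.38 to 3.97). At the coding position printed above, 40 of 124 reads were reference in MidK1 day 56 and 3 of 155 in LowK day 56. Per 10000 reads, MidK1 libraries held 6.23, 19.5 and 13.1 reference reads of Sept6 at days 35, 52 and 56, against 1.95, 3.74 and 1.73 in LowK, and 38.5, 46.1 and 28.9 variant reads, against 87.7, 102 and 60.8. Both counts thus differed, with reference reads higher and variant reads lower in MidK1. They were summed over 17, 20 and 18 sites in MidK1 and 30, 26 and 22 sites in LowK. The counts are therefore not over equal sites, which bears on the lower variant counts of MidK1.

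The other 3 members had no call between MidK1 and LowK on any day. Msn was 5.64 points higher in MidK1 at day 35 (10.8% against 5.14%), 4.22 points higher at day 52 (12.4% against 8.16%) and 9.43 points higher at day 56 (18.0% against 8.54%), with adjusted p of 1.26e-06, 8.15e-05 and 1.02e-14 by Fisher's exact test. Tmsb4x differed by 16.9 points at day 35 (20.3% against 3.35%, Fisher's exact test, adjusted p = 7.51e-38), 4.43 points at day 52 (16.4% against 12%, adjusted p = 0.00821) and -0.417 points at day 56 (17.5% against 17.9%, adjusted p = 0.986). Flna differed by 0.175, 0.153 and 3.38 points (Fisher's exact test, adjusted p = 1, 1 and 0.26), where the shares at day 56 were 24.7% in MidK1 against 21.3% in LowK. The pooled reads of the fibroblast list had a reference share of 21.1, 20.8 and 37.9% in MidK1 at days 35, 52 and 56, against 9.19, 4.52 and 4.61% in LowK. The part of this list in these results was not tested.

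Taking the days as units, an exact two-sided permutation test over the 3 MidK1 and 3 LowK libraries cannot give a p below 0.1, and 29.2% of 219 genes reached that value. Over all listed positions Sept6 averaged 27.8% ± 7.01 in MidK1 and 7.31% ± 3.27 in LowK (SD, n = 3 days each), a difference of 20.5 points with exact permutation p = 0.1 and adjusted p = 0.342 by Benjamini-Hochberg over all genes. At fibroblast-variant sites Sept6 averaged 25.0% ± 9.57 in MidK1 and 2.82% ± 0.680 in LowK (SD, n = 3 days each). The choice of its sites by LowK day 35 holds the value of that library low, and with it the LowK mean. Msn averaged 15.0% ± 2.81 in MidK1 and 7.25% ± 1.88 in LowK (SD, n = 3 days each), with exact permutation p = 0.1. Tmsb4x averaged 18.2% ± 2.15 in MidK1 and 11% ± 7.20 in LowK (SD, n = 3 days each, exact permutation p = 0.3), and Flna 12.1% ± 10.9 in MidK1 and 11.2% ± 10.4 in LowK (exact permutation p = 0.7). The ranges of the courses did not overlap for Sept6 and Msn and did overlap for Tmsb4x and Flna.

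The other grouping sets all 10 reprogrammed libraries against both fibroblast libraries, where 66 splits allow a smallest p of 0.0152 and the shares are over all listed positions. Tmsb4x averaged 17.9% ± 7.58 in reprogrammed libraries (SD, n = 10) and 1.35% ± 1.03 in fibroblasts (SD, n = 2), with an exact permutation p = 0.0152 and an adjusted p = 0.359. Msn averaged 15.8% ± 9.53 and 2.07% ± 1.5 in these groups (exact permutation p = 0.0758, adjusted p = 0.516), and Flna 16.5% ± 10.5 and 4.94% ± 1.14 (exact permutation p = 0.152, adjusted p = 0.526). All 10 reprogrammed libraries were above both fibroblast libraries for Tmsb4x and Msn, and the groups overlapped for Flna, where LowK day 35 (4.42%) lay below MEF1 (5.75%). At fibroblast-variant sites Flna averaged 10.1% ± 7.71 in reprogrammed libraries (SD, n = 10) and 1.66% ± 1.56 in fibroblasts (SD, n = 2, exact permutation p = 0.106, adjusted p = 0.51), and LowK day 35 (4.42%) lay above MEF1 (2.76%). The choice of these sites holds the fibroblast values low. By this test 0 of 142 genes had an adjusted p under 0.05, and 13 had an unadjusted p under 0.05. The spread is over days and courses, not over cultures.

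Within the tables of each fibroblast library the direction was the same. The differences, reprogrammed minus fibroblast, were 7.98 points for Msn, 12.5 for Tmsb4x and 5.90 for Flna in the tables of MEF1, LowK and MidK1, and 21.8, 22.2 and 19.6 points in those of MEF2 and MidK2, over all listed positions. At fibroblast-variant sites they were 7.34, 12.5 and 5.28 points in the first set and 17.9, 20.3 and 12.6 points in the second. The fibroblast libraries themselves differed by -2.13 points for Msn (1.01% in MEF2 against 3.13% in MEF1), -1.45 points for Tmsb4x (0.626% against 2.08%) and -1.86 points for Flna (3.89% against 5.75%), with no call among 174 genes. Across sets of tables, both courses with Shield1 could be set side by side at days 36 and 35, and no member was called, where 2.44% of 246 genes were. Tmsb4x had 28.5% in MidK2 day 36 against 20.6% in MidK1 day 35 (7.96 points, Fisher's exact test, adjusted p = 2.02e-06), and Msn had 11.4% against 14.6% (-3.17 points, adjusted p = 0.0287). Flna had 2.25% against 4.59% (Fisher's exact test, adjusted p = 0.0766) and Sept6 15.8% against 19.7% (adjusted p = 0.0718).

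The depth behind these shares differed between cell types. Flna held 0.339 to 1.14% of all reads at positions in reprogrammed libraries (479 to 1977 reads), against 12.2% in MEF2 and 14% in MEF1 (25655 and 21067 reads). Msn held 0.863 to 1.32% of reads in reprogrammed libraries, against 4.09% in MEF2 and 3.33% in MEF1, and Tmsb4x 0.521 to 0.968%, against 3.08% in MEF2 and 3.78% in MEF1. Sept6 went the other way, with 0.420 to 1.17% in reprogrammed libraries and no position of 20 reads in fibroblasts. The number of Flna sites with 20 reads was 8 to 24 in reprogrammed libraries, against 34 in each fibroblast library, so its values in reprogrammed libraries rest on fewer sites.

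**Figure D4:**
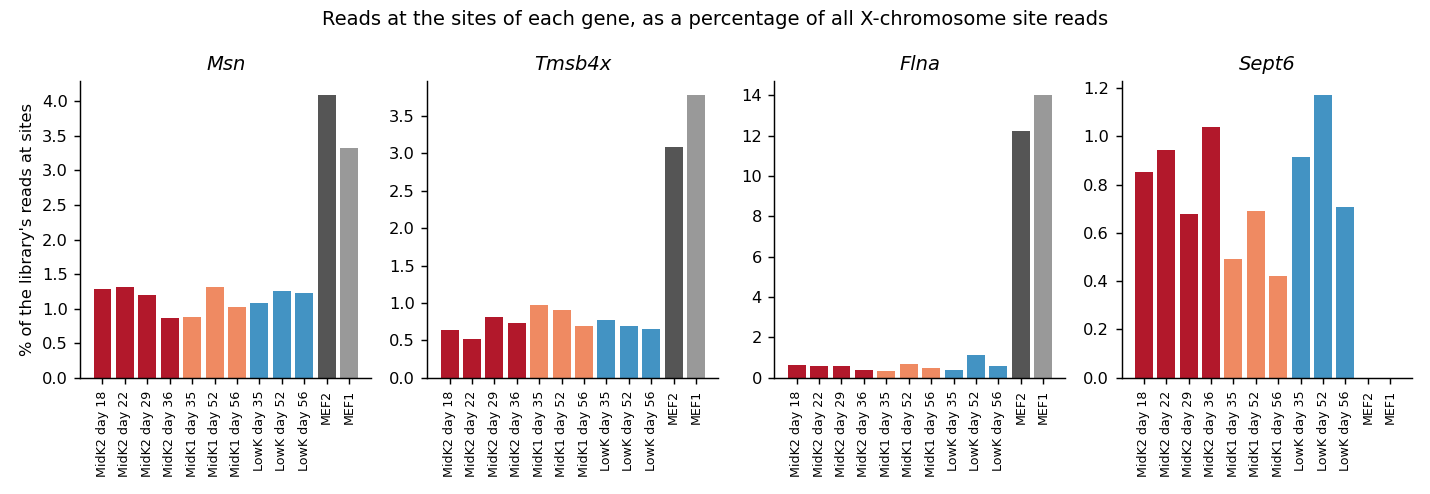
Reads at the positions of each gene as a percentage of all reads at X-chromosome positions of the library, with a separate vertical scale for each gene. Flna holds at most 1.14% in reprogrammed libraries, against 12.2% in MEF2 and 14% in MEF1, and Sept6 has no bar in MEF2 and MEF1, where it had no position of 20 reads.

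Some positions of Flna were mostly reference in every library listing them, and whether their variant base marks an X chromosome was not tested. Both are shown here because their variant share, in place of the reference share, can be set beside the course of the gene. The capital marks the variant position, counted as above.
Flna, coding exon 46 of 47, minus strand, chrX:74224796-74224824, change G15C: gccaaaggcctgggGctaagcaaggctta
Flna, coding exon 42 of 47, minus strand, position chrX:74226862, change A15G, window across an exon junction: tgtttctagtcttcAggagtcagggttaa
The exon 46 position was not listed in either fibroblast library. Its variant share was 10.7% (6.47 to 17.1) of 131 reads at MidK2 day 18, 24.1% (17.1 to 32.8) of 112 reads at day 22 and 18.8% (12.4 to 27.5) of 101 reads at day 29, and the position was not listed at day 36. It was also listed in MidK1 day 56, at 14.8% (8.84 to 23.7) of 88 reads, and in LowK day 56, at 11.7% (6.97 to 19.0) of 111 reads. These are the libraries in which the fibroblast-variant sites of Flna had their highest reference shares in each course, and MidK2 day 18. A position enters the MEF1, LowK and MidK1 tables only from about 10% variant reads, so lower shares there are not seen.

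The exon 42 position changes the middle base of a CAG codon from A to G. Flna transcripts are known to undergo A-to-I RNA editing, which is read as A to G, and whether this position is edited or differs between the X chromosomes was not tested. Its variant share was 5.87% (4.48 to 7.65) of 852 reads in MEF2, 21.4% (10.2 to 39.5) of 28 reads at day 18, 26.9% (13.7 to 46.1) of 26 reads at day 22, 28.6% (13.8 to 50) of 21 reads at day 29 and 5.66% (1.94 to 15.4) of 53 reads at day 36. It was 33.3% (18.0 to 53.3) of 24 reads in LowK day 56 and 12.4% (10.2 to 15.0) of 718 reads in MEF1. The intervals of days 18, 22 and 29 lay above that of MEF2, that of day 36 held it, and each rested on few variant reads, 6, 7, 6 and 3. At fibroblast-variant sites the Flna reference share was 0.557% in MEF2 and 2.76% in MEF1. That share lay below the exon 42 interval in MEF2, MEF1, MidK2 day 18 and LowK day 56, and within it at MidK2 days 22, 29 and 36.

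**Figure D5:**
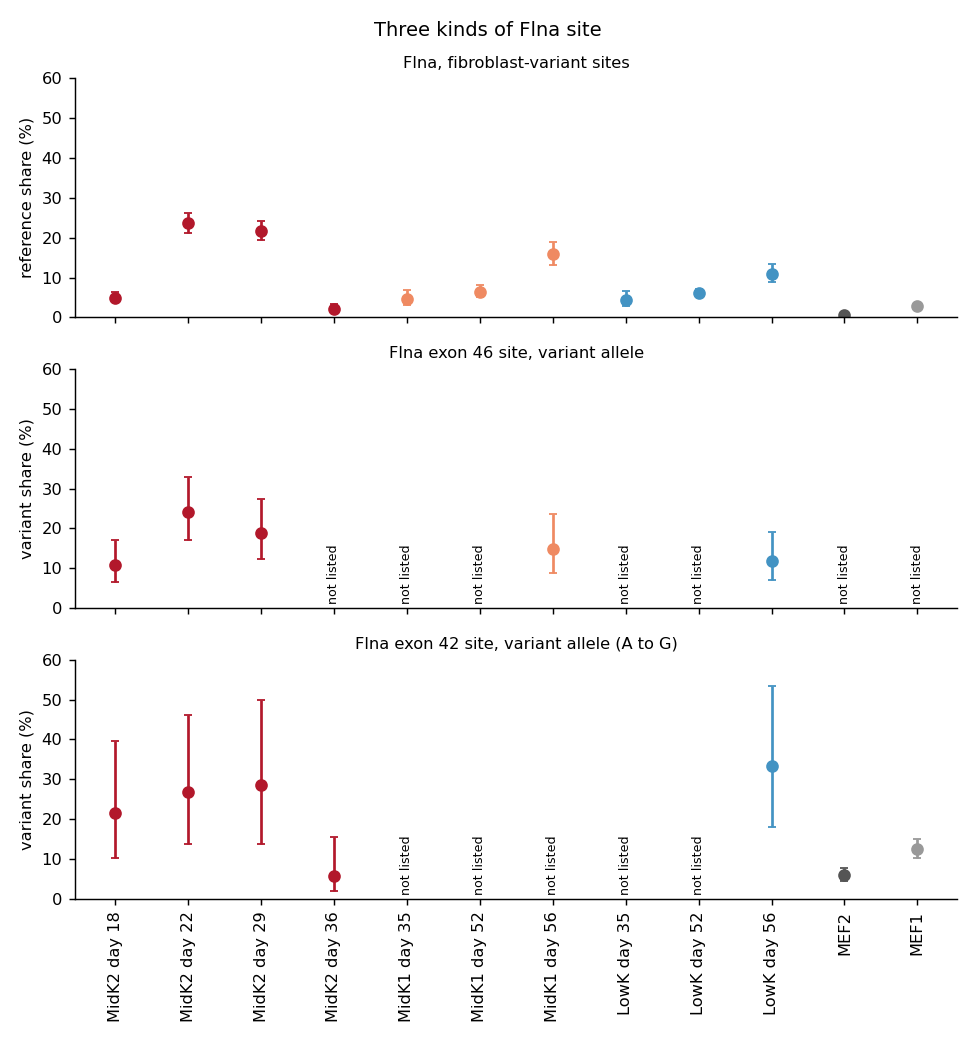
Flna in each library: the reference share at fibroblast-variant sites (top), the variant share at the exon 46 position (middle) and the variant share at the exon 42 position (bottom), in percent of reads with 95% Wilson intervals. Libraries in which a position is not listed with 20 reads are marked; in MidK2 day 22 the 3 values were 23.7, 24.1 and 26.9%.

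Among genes with at least 50 reads in each of the 12 libraries, likeness was measured as the mean absolute difference in reference share, over all listed positions, across the libraries. Of 113 genes, the closest to Msn were Tmsb4x (4.21 points), Thoc2 (4.48), an mRNA export gene, and Magt1 (4.87), a magnesium transporter gene. The closest to Tmsb4x were Msn (4.21 points), Acot9 (4.49), a thioesterase gene, and Sat1 (5.17), a polyamine acetyltransferase gene. The closest to Flna were Tspyl2 (2.67 points), Syap1 (4.73) and Magt1 (5.24), against medians over all genes compared of 8.76 points for Msn, 10.4 for Tmsb4x and 9.41 for Flna. Tspyl2, for example, had 5.72% in MEF2, 30.8% at MidK2 day 22 and 11.3% at day 36. At fibroblast-variant sites the differences between members were 3.59 points for Msn and Flna, 5.54 for Msn and Tmsb4x and 6.27 for Flna and Tmsb4x, so that Flna and not Tmsb4x was then the closer of the 2 to Msn. Sept6 had no position with 20 reads in fibroblasts and could not enter.

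Other X-linked cytoskeleton genes were mostly not measured or not called. Of 17 genes of actin regulation, 1 to 5 were measured in a pair and 0 were called in any pair, in either direction, where 0 to 14.1% of all genes were called. At MidK2 day 22 the 3 measured were Pls3, an actin-bundling gene, at 9.26% against 1.46% in MEF2, Shroom4, at 14% against 2.17%, and Fhl1, at 2.11% against 0.554%. Their median difference was 7.80 points, against 7.95 points over all genes of the pair. Of 12 microtubule and cilium genes, 4 to 8 were measured in a pair, and calls came from Dynlt3, a dynein light chain gene, and Hdac6, a tubulin deacetylase gene, alone. At MidK2 day 36, where Msn and Flna had no call, Hdac6 stood at 27.1% against 0.857% in MEF2 (Fisher's exact test, adjusted p = 8.79e-84), and Dynlt3 at 55.0% against 5.87% (adjusted p = 9.14e-251). Between days 36 and 22 of MidK2, Hdac6 differed by 13.4 points (26.9% against 13.5%, Fisher's exact test, adjusted p = 1.41e-22).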

How the data were processed

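Each library had 1 deposited table of X-chromosome variants. Per the series description, the authors made it with Basic Variant Call in CLC Genomics Workbench. The build was mm10, per the submitters' processing notes, and the aligner and the settings of the caller are not stated in the sources at hand. Per the file headers, each row gives the count of variant reads and the count of covering reads, neither normalised, and the variant's percent of the coverage. The percent equalled 100 times count over coverage and was not used further. The lowest listed count was 5 in the tables of MEF1, LowK and MidK1 and 2 in those of MEF2 and MidK2.

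Single-base variants with at least 20 covering reads were kept, with 1 allele per position (69 second alleles dropped). Reference shares, Wilson intervals, Fisher's exact tests, exact permutation tests and Benjamini-Hochberg adjustments were computed in Python 3.11.15 with numpy 2.4.6, scipy 1.17.1 and pandas 2.3.3, over all genes, and the test was checked on simulated data. Exons and transcript sequences came from GENCODE M21. The 4 members, the gene lists and the tests were chosen with earlier results of these data known. The named genes are the 4 members, list members called in a pair described, the 3 genes most alike, and the measured actin genes at MidK2 day 22, which were named after their values were seen. Alternatives changed the coverage minimum, the size limit, the positions used, the fibroblast library and the libraries included. The fibroblast-variant sites and the permutation within sets of tables were chosen after seeing the data. One of the marker lists is not reported here.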

Additional observations from a re-analysis of the deposited data

Results flagged for a closer look

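Sept6 at MidK2 day 18 stands in the deposited table under a date in place of the gene name, so a search for the symbol finds no reads of it in that library. Read as Sept6, the positions gave a reference share of 2.11% (1.49 to 2.98) of 1468 reads at fibroblast-variant sites and 14% over all 36 positions with at least 20 reads.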

How the results depend on the processing

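Of 65 member pairs tested, 9 were calls. The number was 24 at a limit of 10 points and 1 at 30 points, 12 with at least 50 reads, 10 at the single site of highest coverage and 10 at sites at least 80% variant in MEF. None of the 9 calls changed direction. Among pairs not called, the sign was opposite to the main value for Flna between days 29 and 22 with at least 10 reads (0.506), for Tmsb4x between those days (-0.216) with at least 50 reads and at the site of highest coverage, and for Msn between those days at that site (-2.08). For Flna in MidK1 minus LowK at day 52 it was so with at least 50 reads (-0.362) and at that site (-1.7). For Sept6 it was so between days 36 and 29 (-0.00897) and between MidK2 day 36 and MidK1 day 35 (2.12) with at least 50 reads, and in the last pair at that site (2.02). Against MEF1 in place of MEF2 it was so for Flna at day 18 (-2.73) and day 36 (-0.766). The median percentage of genes called per pair was 4.91, and 13.5 at 10 points and 2.45 at 30 points. MidK2 day 36 minus day 22 was, for Msn, -8.33 points over all positions, -20.4 at positions listed in MEF2 and all 4 MidK2 libraries, -17.2 as the median over sites, -20.1 at sites at least 80% variant in MEF2 and -20.1 at fibroblast-variant sites. For Tmsb4x it was 4.49, and 17.4 as the median over sites. For Flna it was -16.3, -10.9 with at least 50 reads, -21.5 as the median over sites and -21.5 at both kinds of variant site. For Sept6 it was -1.90 over all positions and had the opposite sign with at least 50 reads (1.52), as the median over sites (3.67) and at fibroblast-variant sites (6.03). The positions counted differ between these settings. Sept6 has no value for the settings that need MEF2.

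Leaving out 1 library at a time, reprogrammed minus MEF lay between 11.5 and 14.9 points for Msn, 15.4 and 18.1 for Tmsb4x, and 9.85 and 12.9 for Flna. Leaving out 1 day at a time, MidK1 minus LowK lay between 6.84 and 9.49 points for Msn, 2.13 and 10.8 for Tmsb4x (2.13 without day 35), 0.565 and 1.18 for Flna, and 18.9 and 22.6 for Sept6. With the days paired as a replicate block, the differences were the same 7.73, 7.16, 0.845 and 20.5 points, and an exact sign-flip test gave p = 0.25 for Msn, Flna and Sept6 and p = 0.5 for Tmsb4x, where 0.25 is the smallest possible. With the set of tables as a replicate block, reprogrammed minus MEF was 14.9 points for Msn, 17.3 for Tmsb4x and 12.8 for Flna as the mean of both sets. An exact permutation within sets (35 arrangements, smallest p 0.0286) gave p = 0.0571, 0.0286 and 0.2 (adjusted p = 0.353, 0.29 and 0.458), with 0 of 142 genes under 0.05 after adjustment and 14 before it. At fibroblast-variant sites these values were 12.6, 16.4 and 8.93 points (exact permutation p = 0.0857, 0.0286 and 0.143). Coverage of 20 reads leaves single sites imprecise.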

Other observations

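One Flna position in coding sequence, chrX:74227502, had variant reads alone in every library, for example 967 of 967 in MEF1, 815 of 815 in MEF2 and 102 of 102 in LowK day 52, while other Flna sites of the same libraries carried reference reads. It is 1 of the 34 fibroblast-variant sites of Flna. Where it had at least 20 reads, these are counted in the Flna shares above and lower them. Tmsb4x had 10 positions that were not fibroblast-variant sites, 7 of them intronic.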
